A study of Mus musculus with 14 samples.

Results

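The 50 genes described here build and run the dividing cell, and were followed through the cortex of mice after thrombosis of the large veins of the brain. They were chosen by symbol from the 55359 genes with an Ensembl identifier in the deposited count table: cyclins and mitotic kinases, spindle checkpoint and kinetochore proteins, spindle motors, and the proteins that cut the cell in 2. All 50 were found, and all 50 were among the 16918 genes with enough counts to test. Cerebral venous sinus thrombosis (CVST) was induced, and RNA was sequenced from the cortex of both hemispheres 2 d later (5 samples) or 7 d later (5 samples), beside 4 sham samples. No gene was altered by design, and no further treatment is named in the labels. The labels give neither the time at which sham cortex was taken nor the strain, sex or age of the mice, and they do not say that every sample is a separate animal, so p-values measure the spread between these samples, which may be technical. Whole cortex was homogenised, and a higher level in such a sample can come from more dividing cells or from more RNA per dividing cell, which cannot be told apart.

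Mitosis is driven by cyclin-dependent kinase 1 bound to cyclins A and B. The kinase and its partners are made only late in each cell cycle, held back in resting cells by a repressor complex called DREAM and switched on by B-MYB and FOXM1. The spindle checkpoint then holds the chromosomes until every kinetochore is attached, the anaphase-promoting complex destroys the cyclins, and an actin ring splits the cell. Adult cortical neurons do not divide. Microglia, astrocytes near an injury, oligodendrocyte precursors and vascular cells can, and white blood cells may enter from outside, so transcripts of these genes are usually scarce in healthy cortex.

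The promoters of these genes are shown because the genes moved together and because most of them share short elements through which the late cell cycle is known to be timed. Promoter windows of 300 bases (250 before and 50 after the annotated start) came from RefSeq on build GRCm38.p6, which is not the build of the counts (mm39). Windows were found for 40 of the 50 genes, 2 of them with 2 windows each, which gave 42 windows. Motifs were searched on both strands. TTTGAA is the core of the cell cycle homology region (CHR), which the DREAM complex and B-MYB bind. CCAAT is the box bound by the factor NF-Y. Windows of 4 genes are printed, for 2 genes that moved little or moderately (Bub1b, chr2:118597961-118598260, plus strand, and Racgap1, chr15:99651607-99651906, minus strand) and for 2 that moved strongly (Mki67, chr7:135716330-135716629, minus strand, and Top2a, chr11:99024140-99024439, minus strand). They are the 4 genes with the highest mean level over all samples among those whose window holds both motifs. Both motifs are therefore present in each by choice. The windows were picked with these responses known. Each reads 5′ to 3′ along the gene, and capitals mark every match of either motif, in either orientation.
Racgap1: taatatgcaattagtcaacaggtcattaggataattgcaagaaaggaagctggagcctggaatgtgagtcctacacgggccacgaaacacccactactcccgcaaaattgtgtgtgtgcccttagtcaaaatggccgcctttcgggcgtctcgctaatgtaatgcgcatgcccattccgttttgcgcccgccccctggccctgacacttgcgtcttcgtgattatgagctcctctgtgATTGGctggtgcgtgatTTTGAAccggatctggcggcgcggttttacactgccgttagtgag
Bub1b: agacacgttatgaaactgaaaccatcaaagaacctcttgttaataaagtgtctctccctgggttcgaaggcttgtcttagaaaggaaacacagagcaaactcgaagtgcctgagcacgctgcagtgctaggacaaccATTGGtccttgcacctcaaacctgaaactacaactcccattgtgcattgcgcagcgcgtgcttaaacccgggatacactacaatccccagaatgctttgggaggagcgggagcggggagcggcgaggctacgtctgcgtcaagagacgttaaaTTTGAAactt
Mki67: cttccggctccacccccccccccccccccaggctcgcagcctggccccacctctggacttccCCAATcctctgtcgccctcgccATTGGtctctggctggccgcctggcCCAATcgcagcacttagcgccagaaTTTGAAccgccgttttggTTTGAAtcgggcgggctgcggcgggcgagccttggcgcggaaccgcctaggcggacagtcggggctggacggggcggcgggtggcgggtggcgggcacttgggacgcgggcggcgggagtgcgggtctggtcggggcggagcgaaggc
Top2a: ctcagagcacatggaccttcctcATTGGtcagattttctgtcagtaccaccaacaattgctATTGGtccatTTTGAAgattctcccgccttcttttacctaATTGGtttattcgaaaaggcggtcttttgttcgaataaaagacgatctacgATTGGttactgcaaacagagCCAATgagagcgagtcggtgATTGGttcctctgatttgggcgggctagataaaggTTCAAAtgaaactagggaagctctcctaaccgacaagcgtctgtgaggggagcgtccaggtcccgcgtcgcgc

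A TTTGAA match lay in 34 of the 42 windows (81.0%), against 17.9% of all 32851 promoter windows in the table. CCAAT lay in 32 of 42 (76.2%, against 37.4%), and 24 windows held it 2 or more times (57.1%, against 11.7%). Both motifs together lay in 28 of 42 windows (66.7%, against 6.95%). The close relative TTTAAA lay in 10 windows (23.8%, against 13.2%), and TTTGGCGC, a site of the E2F factors of S phase, in 1 (2.38%, against 0.514%). Matches of different motifs can share at most 1 base at their edges. The first 2 motifs also sat at different distances. The 2 windows of Ect2 overlap, as do those of Prc1, so sites they share are counted in both. The median centre of the 44 TTTGAA matches was 6.0 bases past the start and 35 lay within 50 bases of it, which holds for 25.8% of TTTGAA matches in all promoters. The 78 CCAAT matches had their median at -61.5, and 31 lay within 50 bases (29.2% in all promoters). Top2a carried 6 CCAAT boxes and 2 TTTGAA, Mki67 3 and 2, and Bub1b and Racgap1 1 of each. Whether the number of matches goes with the response was not tested. The 26 genes with both motifs had a median log2 fold change at 2 d of 2.38 (0.53 to 4.86), and the 14 without both had 2.20 (0.26 to 4.81). A match is a description of these letters and not a shown binding site.

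**Figure D1:**
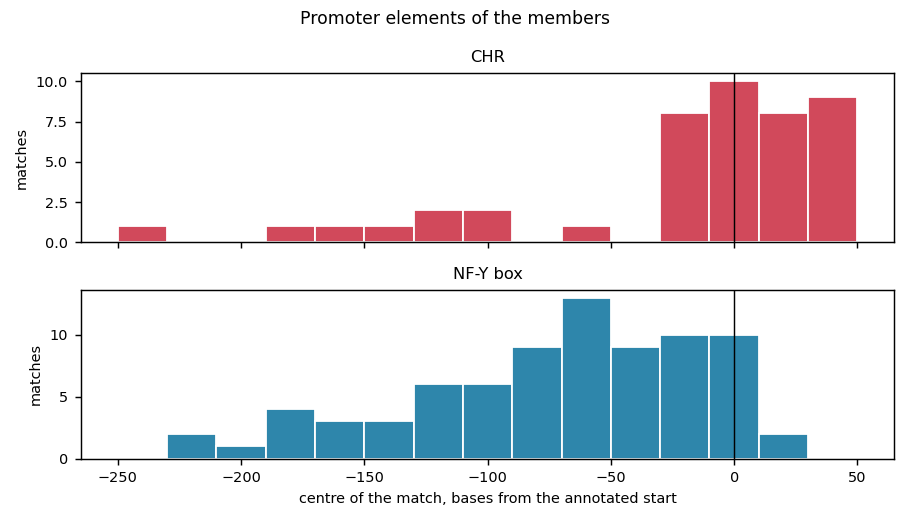
Positions of the 2 promoter elements in the windows of 40 genes: distance in bases from the annotated start (x axis) and number of matches per 20 bases (y axis), with TTTGAA in the upper panel (CHR) and CCAAT in the lower panel (NF-Y box). Of the 44 CHR matches 35 lie within 50 bases of the start, while the 78 NF-Y boxes centre around -61.5. Sites shared by the overlapping windows of Ect2 and of Prc1 are counted in both.

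The total gene count of a sample was 14.7 to 20.8 M. Across all genes, CVST-2d 5 and CVST-7d 2 lay beside the sham samples on the first principal component (33.1% of the variance). CVST-2d 5 also stood apart in the genes described here, so results at 2 d are given with and without it. The unit of level is CPM, which divides a count by the TMM-scaled size of its library. Fold changes are log2 values ± SE, and adjusted p is from edgeR's quasi-likelihood test after Benjamini-Hochberg adjustment across the 16918 genes.

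At 2 d the mitotic genes rose. Of the 50, 34 were called higher than sham and 0 lower, where 2.98% of all genes were called higher and 0.969% lower. Their median log2 fold change was 2.32 (all genes -0.01), every fold change was above 0 (0.26 to 4.86), and 45 were at least 2-fold up. Cdk1 had the largest fold change, then Bub1, Ube2c, Top2a and Kif2c. The other 16 genes missed the threshold, and 14 of these had an unadjusted p under 0.05. Unadjusted counts, here and below, have no share of all genes beside them.
Every 2 d library lay above every sham library for 9 of the 50 genes (5.65% of all genes): Ccna2, Plk1, Cenpe, Ndc80, Spc25, Kif2c, Dlgap5, Racgap1 and Mki67. The calls were close to the threshold and moved with single libraries. Without CVST-2d 5, 46 genes were called higher (7.08% of all genes) with a median of 2.6, and 34 of the 34 calls were kept. Without CVST-2d 1, 2, 3 or 4, 25, 26, 23 and 25 of the 34 calls were lost. Without sham 1, 30 were lost, and without sham 2, sham 3 or sham 4 all 34 were lost, while the share of all genes called higher fell to between 0.349% and 1.15% in the 4 fits. Plk1 and Spc25 held in 6 of the 9 such fits, and Cdk1, Cenpe, Kif2c, Tpx2, Kif20a and Mki67 in 5.

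**Figure D2:**
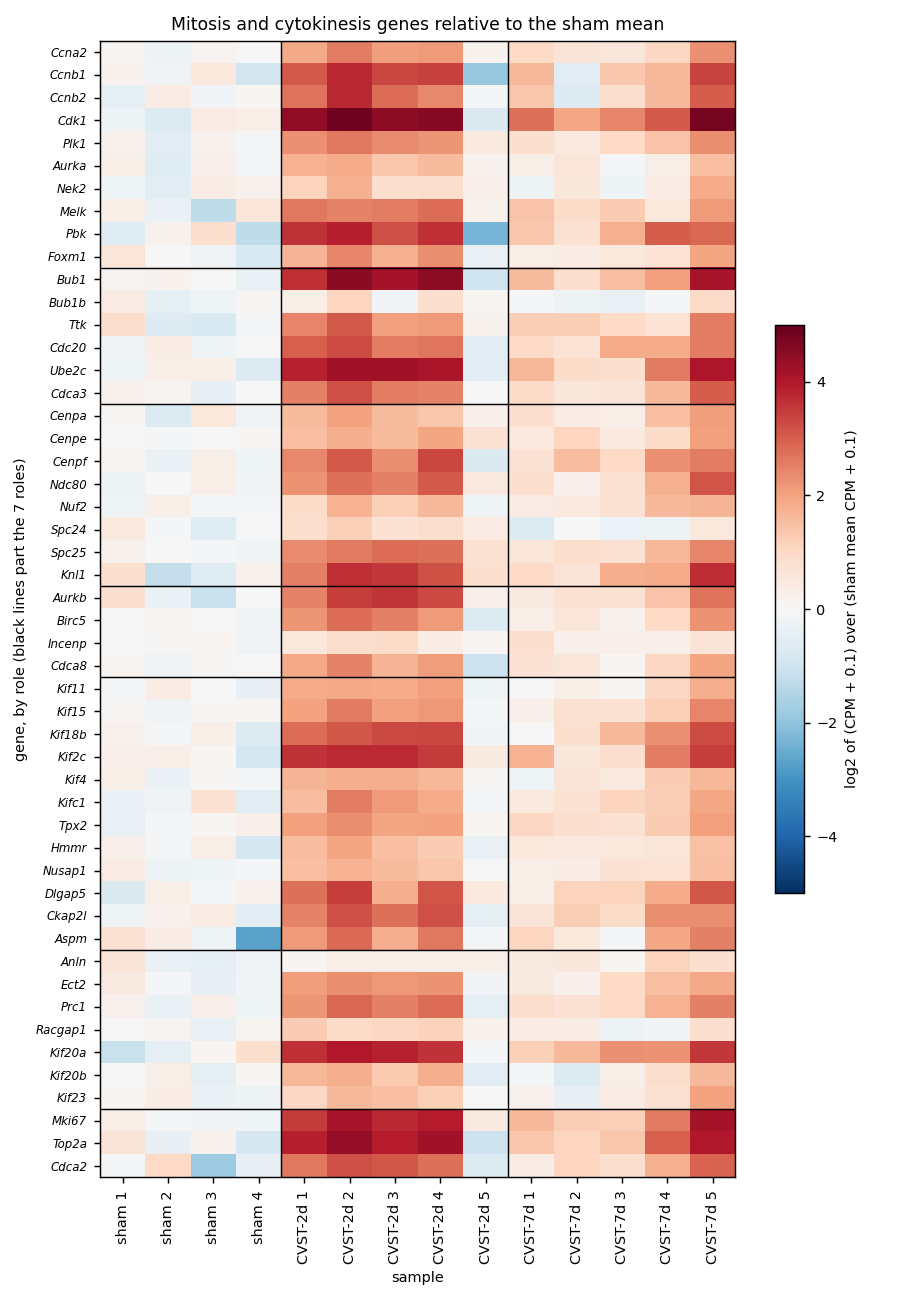
Level of each of the 50 genes (rows, parted by role) in each of the 14 samples (columns), as log2 of CPM plus 0.1 over the sham mean plus 0.1. Red columns mark CVST-2d 1 to 4 and CVST-7d 5, while CVST-2d 5 keeps the pale shade of the sham columns.

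The cyclins, their kinases and the transcription factor of mitosis rose in 7 of 10 cases at 2 d, with a median log2 fold change of 2.40. Cdk1, the kinase that starts mitosis, read 0.118, 0.0606, 0.25 and 0.216 CPM in sham 1 to 4, then 5.58, 7.45, 5.76, 6.05 and 0.0579 at 2 d, and 1.67, 0.887, 1.32, 2.07 and 7.13 at 7 d. CVST-2d 5 held 1 count, as did sham 2, and the other CVST libraries lay above the highest sham value. The fold change was 4.86 ± 1.01 at 2 d (adjusted p = 0.0209), and 3.94 ± 1.01 at 7 d (adjusted p = 0.0405). Ccnb1, the cyclin B1 partner of that kinase, read 0.588, 0.424, 0.751 and 0.216 CPM in sham, 4.93, 7.92, 5.89, 6.33 and 0.0579 at 2 d, and 1.74, 0.317, 1.43, 1.79 and 6.03 at 7 d. Its groups overlap at both times, and at 2 d its fold change of 3.32 ± 0.91 missed the threshold (adjusted p = 0.055). Ccna2, cyclin A2, which acts from S phase into early mitosis, read 2.76, 2.12, 2.75 and 2.48 CPM in sham, 9.8, 15.3, 11.1, 11.4 and 2.89 at 2 d, and 5.09, 3.99, 3.78, 5.25 and 12.7 at 7 d. No CVST library overlapped sham, CVST-2d 5 by a small margin (2.00 ± 0.44 at 2 d, adjusted p = 0.0268). Foxm1, the transcription factor of late cell cycle genes, read 2.41, 1.51, 1.35 and 0.862 CPM in sham, 5.2, 8.81, 5.56, 8.03 and 1.22 at 2 d, and 1.95, 2.03, 2.23, 2.51 and 6.4 at 7 d. At 7 d only CVST-7d 4 and CVST-7d 5 passed the highest sham value, and at 2 d the fold change of 1.91 ± 0.52 missed the threshold (adjusted p = 0.0531). Among the others, Pbk (3.54), Ccnb2 (2.97), Melk (2.53), the polo kinase gene Plk1 (2.27) and the spindle pole kinase gene Aurka (1.53) rose, while Nek2, the centrosome kinase, had 1.11 ± 0.45 (adjusted p = 0.17).

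The spindle checkpoint and the machinery that ends it rose in 5 of 6 cases at 2 d, with a median of 2.72. Bub1 (4.81), a checkpoint kinase, and Ttk (2.63), the kinase that starts checkpoint signalling, rose. So did Cdc20 (2.81), the activator of the anaphase-promoting complex, and Ube2c (4.26), the ubiquitin-conjugating enzyme that works with it. Cdca3, a trigger of entry into mitosis, read 0.823, 0.787, 0.5 and 0.7 CPM in sham, 4.54, 7.45, 4.65, 4.35 and 0.695 at 2 d, and 1.46, 1.08, 1.15, 2.4 and 6.45 at 7 d (2.62 ± 0.65 at 2 d, adjusted p = 0.0389). CVST-2d 5 sat inside the sham range and every other CVST library above it. Bub1b, which encodes the checkpoint protein BubR1, differed from the rest of the group. It read 11.8, 6.42, 7.61 and 9.16 CPM in sham, 11, 18.7, 8.05, 16.0 and 9.44 at 2 d, and 8.36, 7.29, 6.7, 8.2 and 17 at 7 d. Only CVST-2d 2, CVST-2d 4 and CVST-7d 5 passed the highest sham value, and the fold change at 2 d was 0.53 ± 0.31 (adjusted p = 0.334).

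Of the 8 kinetochore and centromere genes, which link chromosomes to spindle fibres, 5 rose at 2 d (median 2.11). These were Knl1 (3.74), the platform on which checkpoint proteins dock, Ndc80 (2.75) and Spc25 (2.57), subunits of the complex that grips microtubules, and Cenpf (2.72) and Cenpe (1.64), large proteins of the outer kinetochore. The other 2 subunits of the same gripping complex did not pass the test. Nuf2 read 1.65, 2.42, 1.85 and 1.83 CPM in sham, 3.72, 6.7, 4.52, 6.22 and 1.68 at 2 d, and 2.58, 2.79, 3.38, 6.25 and 6.56 at 7 d, with a fold change of 1.24 ± 0.39 at 2 d (adjusted p = 0.085). All 5 libraries at 7 d lay above sham, and CVST-2d 5 was the single CVST library that did not. Spc24 had 0.89 ± 0.29 at 2 d (adjusted p = 0.0922) and -0.08 ± 0.29 at 7 d. Cenpa, the histone that marks centromeres, read 1.82, 1.03, 2.5 and 1.56 CPM in sham, 5.31, 7.22, 5.37, 4.68 and 2.08 at 2 d, and 3.21, 2.34, 2.18, 5.02 and 7.76 at 7 d. CVST-2d 5, CVST-7d 2 and CVST-7d 3 overlapped sham (1.5 ± 0.42 at 2 d, adjusted p = 0.0597).

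The chromosomal passenger complex corrects wrong spindle attachments and later moves to the middle of the cell. Its kinase Aurkb (3.32) and its survivin subunit Birc5 (2.28) rose at 2 d, and its 2 other subunits did not pass the test. Cdca8, which encodes borealin, read 1.18, 0.908, 1.1 and 1.02 CPM in sham, 4.16, 6.33, 3.6, 4.79 and 0.463 at 2 d, and 1.81, 1.65, 1.15, 2.23 and 4.41 at 7 d. CVST-2d 5 lay below all sham libraries, and the fold change at 2 d was 1.87 ± 0.54 (adjusted p = 0.0652). Incenp, the scaffold of the complex, read 13.6, 14, 14.5 and 11.7 CPM in sham, 19.5, 24.6, 25.9, 17.4 and 14.4 at 2 d, and 24.4, 16.0, 15.9, 16.1 and 21 at 7 d. All 5 libraries at 7 d and 4 of the 5 at 2 d lay above the highest sham value, by less than 2-fold (0.60 ± 0.18 at 2 d, adjusted p = 0.0744).

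Spindle motors and microtubule proteins rose in 9 of 12 cases at 2 d (median 2.02). The largest were Kif2c (3.91), which shortens microtubules at the centromere, Kif18b (3.48), and Dlgap5 (3.03), a spindle assembly protein. Ckap2l (2.80), Kif15 (2.12), the minus-end motor Kifc1 (1.93), Kif4 (1.61) and Nusap1 (1.40) rose as well. Tpx2, which activates the Aurora A kinase on the spindle, read 1.94, 2.42, 2.65 and 3.02 CPM in sham, 10.8, 13.0, 10.2, 10.3 and 2.72 at 2 d, and 5.23, 4.62, 4.35, 6.2 and 10.6 at 7 d. The sham range held CVST-2d 5 and no other CVST library (1.91 ± 0.38 at 2 d, adjusted p = 0.0187). Kif11, the motor that pushes spindle poles apart, read 1.82, 2.54, 1.95 and 1.45 CPM in sham, 7.28, 7.59, 7.27, 8.25 and 1.68 at 2 d, and 1.95, 2.41, 2.01, 4.13 and 7.13 at 7 d. At 7 d, 3 libraries lay in the sham range, and at 2 d the fold change of 1.72 ± 0.46 missed the threshold (adjusted p = 0.0513). Aspm (2.36, adjusted p = 0.0944), a spindle pole protein, and Hmmr (1.42, adjusted p = 0.0643) also missed it.

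Cytokinesis genes had the lowest median at 2 d of the 7 roles (1.5), with 4 of 7 called. Kif20a (3.77), a motor of the spindle midzone, Prc1 (2.39), which bundles midzone microtubules, and Ect2 (2.07), which switches on the contractile ring, rose. Racgap1, the partner of Ect2 at the midzone, read 11.4, 12.1, 8.61 and 12.3 CPM in sham, 27.0, 21, 22.9, 24.5 and 12.6 at 2 d, and 14.2, 14.2, 9.28, 10.1 and 20.1 at 7 d. Every 2 d library lay above sham, CVST-2d 5 only just, and 2 of the 7 d libraries were back in the sham range (0.96 ± 0.24 at 2 d, adjusted p = 0.0396). Kif23, the motor that pairs with Racgap1 (1.23 ± 0.46, adjusted p = 0.139), and Kif20b (1.5 ± 0.51, adjusted p = 0.109) missed the threshold. Anln, which encodes the actin-binding protein anillin of the contractile ring, read 32.6, 16.4, 15.4 and 18.6 CPM in sham, 22.0, 26.2, 25.7, 25.5 and 25.1 at 2 d, and 28.2, 30.7, 22.2, 45.3 and 36.9 at 7 d. Sham 1 was above all 5 libraries at 2 d. Sham 1, CVST-7d 4 and CVST-7d 5, the libraries highest in Anln, also had the highest sums of 6 oligodendrocyte and myelin markers. These sums were 7511, 7929 and 5903 CPM, and a link to Anln was not tested. The fold change of Anln was 0.26 ± 0.22 at 2 d (adjusted p = 0.519) and 0.66 ± 0.22 at 7 d (adjusted p = 0.112). Of the fits without 1 library, only that without sham 1 called it higher at 7 d (adjusted p = 0.0335). In that fit 1.55% of all genes were called higher. Anln was the single gene of the 50 with a higher mean estimate at 7 d than at 2 d (0.39 ± 0.21, adjusted p = 0.292).

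The last 3 genes act on the chromosomes themselves. Mki67, the proliferation marker Ki-67 that coats mitotic chromosomes, read 1.82, 1.39, 1.3 and 1.24 CPM in sham, 17.1, 26.7, 20.8, 23.2 and 2.03 at 2 d, and 4.6, 3.48, 3.44, 9.1 and 27.6 at 7 d. No CVST library overlapped sham (3.64 ± 0.77 at 2 d, adjusted p = 0.0229, and 2.75 ± 0.75 at 7 d, adjusted p = 0.0536). Top2a, the topoisomerase that untangles sister chromatids, read 1.88, 0.848, 1.3 and 0.593 CPM in sham, 18.7, 26.4, 19.2, 23.2 and 0.521 at 2 d, and 3.21, 2.53, 3.21, 9.82 and 20.1 at 7 d (3.92 ± 0.90 at 2 d, adjusted p = 0.0309). CVST-2d 5 was below all sham libraries in this gene, although it was just above them in Mki67. Cdca2, which brings a phosphatase to chromosomes at mitotic exit, had 3.08 ± 0.88 at 2 d (adjusted p = 0.0635).

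**Figure D3:**
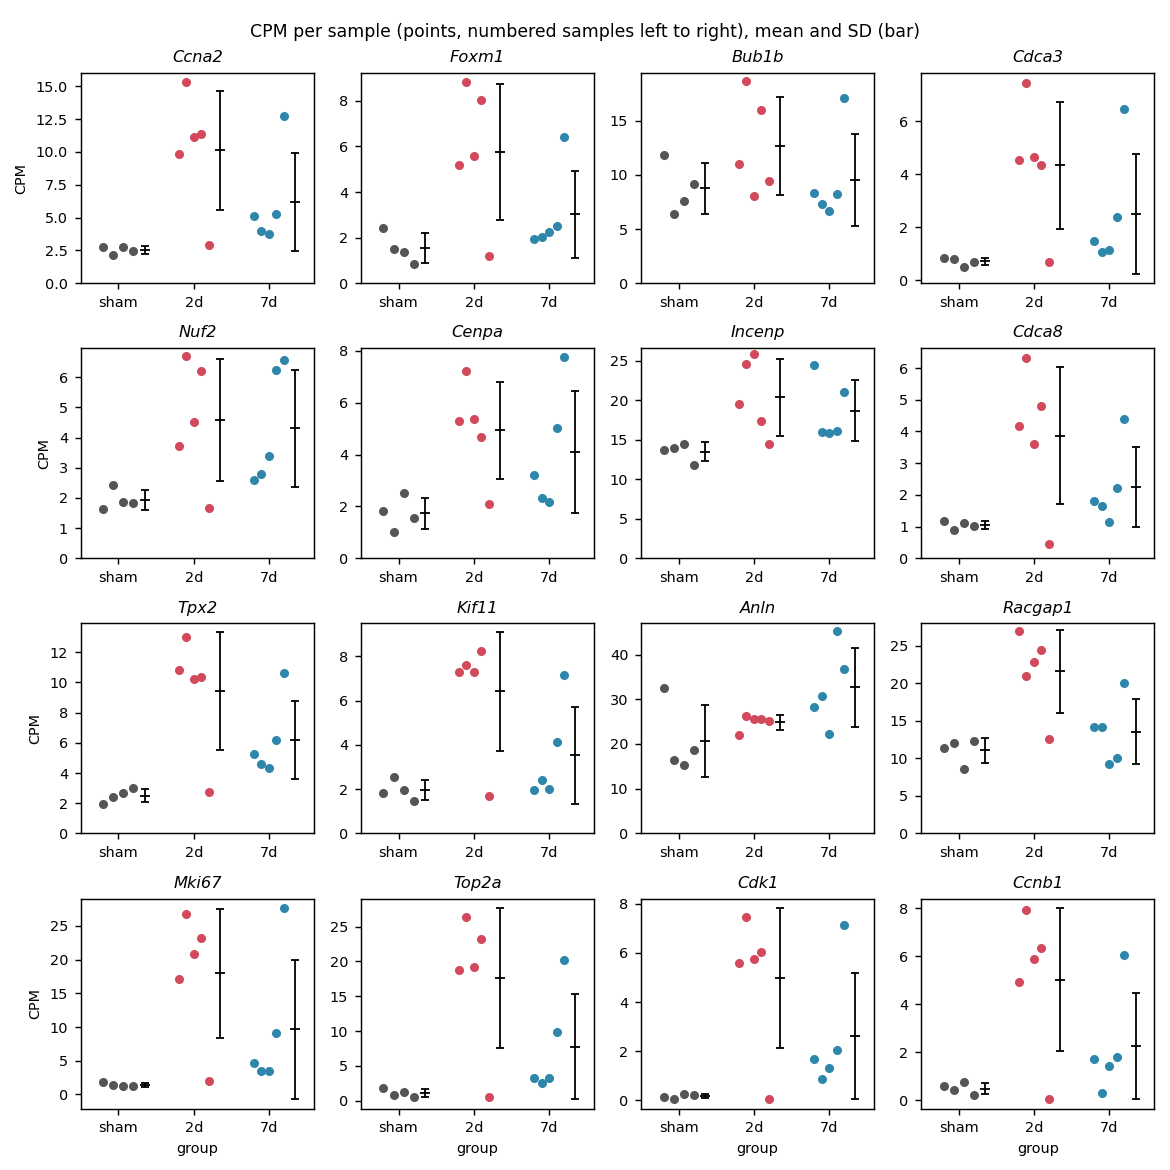
CPM of 16 genes in each sample (points, in sample order within sham, 2 d and 7 d), with mean and SD as a bar beside each group. In most panels the last 2 d point falls to the sham level and the last 7 d point stands above the others, for Mki67 at 2.03 and 27.6 CPM.

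At 7 d the fold changes were smaller and 1 of the 50 genes was called. Cdk1 was higher than sham, none was lower, and 3.61% of all genes were called higher and 0.833% lower. The median log2 fold change was 1.47, and Spc24 alone had an estimate under 0. An unadjusted p under 0.05 was seen in 38 genes, all of them higher, a count with no share of all genes beside it. DESeq2's Wald test on the same counts called 24 of the 50 higher, against 5.68% of the genes it tested. Every 7 d library lay above every sham library for 22 genes, against 5.8% of all genes. These 22 held Cdk1, Ccna2, Plk1, Mki67, Top2a, Incenp and Nuf2. The call for Cdk1 was lost without CVST-7d 4 (adjusted p = 0.0745), without CVST-7d 5 (adjusted p = 0.096), and without any 1 of sham 1 to 4 (adjusted p = 0.0885, 0.115, 0.107 and 0.108). Without CVST-7d 5 the median of the 50 was 1.08.

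Between 2 d and 7 d, 0 of the 50 genes were called in either direction by edgeR, where 1.54% of all genes were higher at 7 d and 1.25% lower. At an unadjusted p under 0.05, 6 were lower and 0 higher, again with no share of all genes beside these counts. DESeq2 called 2 lower (3.94% of the genes it tested), and limma's voom with sample weights called 11 lower (3.85%). The median log2 fold change was -0.81, and in 48 of 50 genes the 7 d mean CPM lay between the sham and the 2 d mean, as it did in 35% of all genes. The lowest adjusted p belonged to Spc24 (-0.97 ± 0.27, adjusted p = 0.0662), Racgap1 (-0.67 ± 0.22, adjusted p = 0.108) and Aurkb (-1.54 ± 0.60, adjusted p = 0.155). The 2 d comparison and the 7 d comparison share the sham samples. Without CVST-2d 5, 9 genes were called lower at 7 d than at 2 d (4.18% of all genes in that fit): Melk, Cdc20, Spc24, Spc25, Aurkb, Birc5, Tpx2, Ckap2l and Racgap1. Without CVST-7d 5, Spc24 and Racgap1 were (1.14%).

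**Figure D4:**
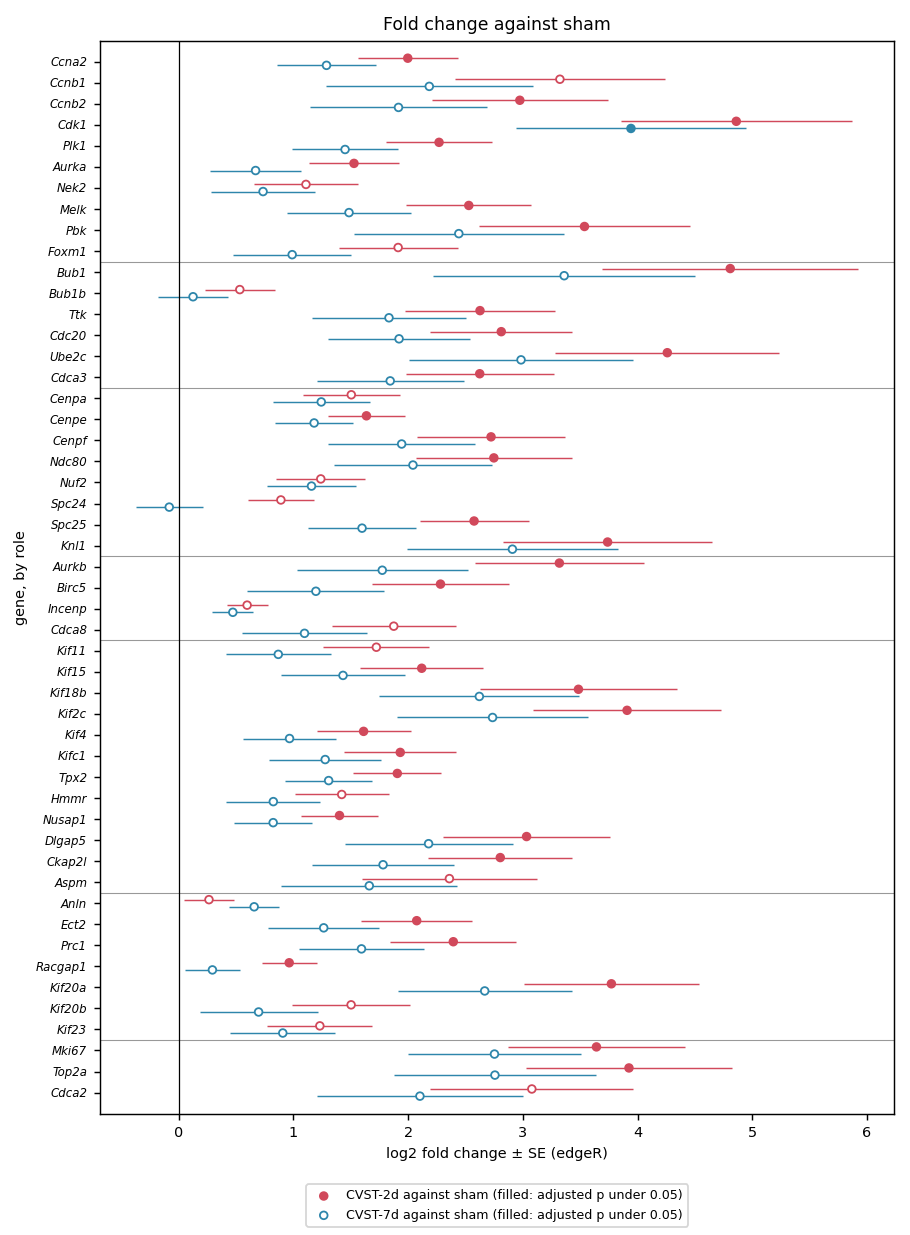
Log2 fold change against sham (x axis) of each of the 50 genes, by role (y axis), at 2 d and at 7 d, with SE as bars and filled points where the adjusted p from edgeR was under 0.05. Filled points number 34 at 2 d and 1 at 7 d.

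The samples of a group differed widely in these genes. At 2 d, 48, 49, 48, 49 and 9 of the 50 genes lay above the highest sham library in CVST-2d 1 to 5, against 31.7%, 27.9%, 26.1%, 27.9% and 22.2% of all genes. CVST-2d 5 was the lowest 2 d library in 48 genes (26.4% of all genes), lay within the sham range in 30 (55.0%), and lay below the lowest sham in 11. Of all genes, 22.2% lay above and 55.0% within the sham range in CVST-2d 5. The rest lay below it, a share near that of the 11 in 50. At 7 d, 34, 33, 37, 44 and 50 genes lay above the highest sham in CVST-7d 1 to 5, against 24.4%, 21.9%, 21.3%, 30.5% and 29.2% of all genes. CVST-7d 5 was the highest 7 d library in 47 genes (26.1%) and passed the 2 d mean in 41 (49.0%). The mean log2 difference of the 50 genes from the sham mean put this on 1 scale: -0.15 to 0.17 in sham, 2.25, 2.73, 2.34, 2.46 and -0.07 at 2 d, and 0.78, 0.67, 0.83, 1.47 and 2.46 at 7 d. Summed CPM of the 50 genes ran from 89.3 to 117 in sham, was 103 in CVST-2d 5 and between 301 and 405 in the rest of the 2 d group, and ran from 129 to 354 at 7 d.

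The genes rose and fell together across samples. Correlated with the mean of the other 49 over the 14 samples, the median gene had r = 0.95, and 42 of 50 were over 0.9. These samples differ by group, so r describes the shared pattern only. Anln had the lowest value (0.40), then Bub1b (0.65), Spc24 (0.67) and Incenp (0.77). Per length, in FPKM, Incenp (7.07), Anln (5.32) and Racgap1 (4.25) also had the highest sham levels of the 50, where the median gene had 0.418. At 2 d the median was 1.90, and Incenp (11.1), Racgap1 (8.89) and Cdk1 (7.28) led. At 7 d the median was 1.19.

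Fixed markers of other cell types were read in the same samples, and their part in the rise of the mitotic genes was not tested. Against sham, 2.98% of all genes were called higher at 2 d and 3.61% at 7 d. The shares called lower were 0.969% and 0.833%. The marker lists are short, so a single call in a list says little. The 8 microglia markers summed to 289 to 332 CPM in sham, 497, 600, 441, 438 and 273 in CVST-2d 1 to 5, and 588, 382, 537, 1029 and 881 in CVST-7d 1 to 5. At 2 d, 0 of the 8 were called, and at 7 d 4 were called higher. The 8 monocyte and macrophage markers summed to 11.7 to 15.4 CPM in sham, 25.0 to 194 at 2 d with CVST-2d 5 lowest, and 20.3 to 1838 at 7 d with CVST-7d 2 lowest and CVST-7d 5 highest. Of these, 1 was called higher at 2 d and 3 at 7 d. Astrocyte markers summed to 1650 to 1805 CPM in sham, 2173 (CVST-2d 5) to 3180 at 2 d and 2379 to 4699 at 7 d. Of the 7, Gfap and Aldh1l1 rose at 2 d, Gfap and Aqp4 at 7 d, and 4 had estimates under 0 at 2 d. Endothelial markers summed to 177 to 228 CPM in sham, 231 to 366 at 2 d and 168 to 247 at 7 d. Pecam1 (1.02) and Cdh5 (0.98) rose at 2 d, all 7 had estimates above 0 at that time, and none was called at 7 d. Oligodendrocyte precursor markers summed to 254 to 294 CPM in sham, 234 to 324 at 2 d and 273 to 392 at 7 d, with 0 of 6 called against sham.

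Oligodendrocyte and myelin markers summed to 2986 to 7511 CPM in sham, 2853 to 4528 at 2 d and 3584 to 7929 at 7 d. Of these 6, 0 were called against sham at either time. Mural and fibroblast markers summed to 224 to 266 CPM in sham and reached 2263 CPM in CVST-7d 5, and 2 of 8 were called higher at 7 d. Neuroblast and progenitor markers summed to 98.3 to 110 CPM in sham, 102 to 168 at 2 d and 84.7 to 104 at 7 d. Nes (1.94), which reactive astrocytes and vessels also express, was the single one of 7 tested with an estimate above 0 at 2 d and was called; the median was -0.23, and Dlx1 was called lower at 7 d. Lymphocyte markers summed to 0.901 to 15.4 CPM in sham, 1.83 to 12.3 at 2 d with CVST-2d 5 highest, and 1.08 to 13.8 at 7 d with CVST-7d 5 highest. Cd4, the 1 of the 8 with enough counts to test, had -0.91 and -0.94 (not called), and Cd3d and Nkg7 were at 0 in all sham libraries. Neutrophil markers summed to 0.121 to 2.18 CPM in sham, 1.92 to 8.81 at 2 d and 0 to 3.57 at 7 d, with 0 of the 2 tested called. Red cell markers summed to 4.10 to 26 CPM in sham, 25.0 to 385 at 2 d and 2.01 to 32.6 at 7 d. The 4 tested had a median of 3.44 at 2 d and none was called (lowest adjusted p = 0.055).

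Markers of excitatory cortical neurons, by which the tissue was checked, were present throughout, with 0 of 7 called at either time: Slc17a7 lay between 895 and 1574 CPM. Interneuron markers summed to 796 to 1024 CPM in sham, 752 to 987 at 2 d and 612 to 831 at 7 d. Of these 6, 0 were called against sham. Markers of neighbouring tissue varied between libraries. Striatal markers summed to 153 to 1086 CPM in sham, to 840 in CVST-2d 5 and 171 to 401 in the rest of the 2 d group, and to 895 in CVST-7d 5 and 177 to 201 in the rest of the 7 d group. Choroid plexus and ependymal markers summed to 15.3 to 842 CPM in sham, 10.03 to 484 at 2 d and 10.9 to 130 at 7 d. CVST-2d 5 and CVST-7d 5, which stand apart in the mitotic genes in opposite directions, were both the highest of their group in striatal markers.

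The other genes of the cycle were described from lists of known function. Of 62 further G2 and M phase genes, 13 were called higher at 2 d, against 2.98% of all genes. At 7 d 3 were (4.84%, near the 3.61% of all genes). The medians were 1.03 at 2 d and 0.67 at 7 d. At 2 d the called genes held Cdca5 (3.72), the sororin that protects sister cohesion, and Ncapg (3.40), a condensin subunit. They also held Esco2 (3.05), a cohesin acetyltransferase, and the motor Kif18a (2.04 ± 0.31, adjusted p = 0.00627). At 7 d they were Iqgap3 (2.34), Kif18a (1.17) and Arhgap11a (0.98). Kif18a read 1.74 CPM in CVST-2d 5, above the highest sham library (1.24). Replication and S phase genes act before the 50 genes in the cycle. At 2 d 20 of 45 were called higher (44.4%, median 0.98). At 7 d 1 was (2.22%, below the share of all genes). The repressor E2f8 (3.20 ± 0.69) led at 2 d and was the single one at 7 d (2.98 ± 0.69, adjusted p = 0.028). Uhrf1 (2.80), the origin licensing factor Cdc6 (2.79) and the thymidine kinase gene Tk1 (2.78) followed, with Mcm2 at 1.38 and the sliding clamp gene Pcna at 0.53. From 2 d to 7 d Pcna fell by 0.49 and the ligase gene Lig1 by 0.66. Lig1 (0.98 at 2 d) and Kif18a were called at 2 d in all 9 fits without 1 library. Of the further G2 and M phase genes, 38 were called without CVST-2d 5 (7.08% of all genes higher in that fit), 4 to 5 without another 2 d library, 6 without sham 1 and 1 without sham 2, 3 or 4, and of the replication genes 30, 4 to 10, 4 and 1 to 2. At 7 d, the 3 further G2 and M phase calls became 6 without CVST-7d 2 (5.29% of all genes higher in that fit), and E2f8 had an adjusted p of up to 0.0893 without 1 library.
The list of 36 parts of the mitotic machinery that cells also use outside division had 0 calls at 2 d and 0 at 7 d by edgeR (5 had an unadjusted p under 0.05 at each time), with medians of 0.01 and 0.01, and 1, Clasp2, was higher at 7 d than at 2 d (0.35 ± 0.08, adjusted p = 0.0315). TTTGAA lay in 26 of 59 promoter windows of the further G2 and M phase genes, in 8 of 43 of the replication genes and in 8 of 37 of the constitutive ones.

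Upstream of mitosis, a list of 10 G1 genes held the D cyclins and their kinases beside Myc, Mycn, Cdc25a, Skp2 and E2f3. Of these 10, 1 was called higher and 2 lower at 2 d (2.98% and 0.969% of all genes). Myc rose at 2 d (1.22 ± 0.26, adjusted p = 0.0243), while Mycn fell by 1.10 (adjusted p = 0.0154) and Ccnd2, cyclin D2, fell by 0.45 (adjusted p = 0.0396). At 7 d Ccnd2 was lower than sham (-0.47 ± 0.11, adjusted p = 0.0297). From 2 d to 7 d, Ccnd1 (cyclin D1), Ccnd3 and Myc fell by 1.05, 0.49 and 1.14. Without 1 library the adjusted p at 2 d reached 0.0887 for Myc, 0.064 for Mycn and 0.132 for Ccnd2. Of 26 inhibitor and DREAM complex genes tested, 1 was called higher at 2 d and 1 at 7 d (3.85% each, near the 2.98% and 3.61% of all genes). Cdkn1a, which encodes the inhibitor p21, rose at 2 d (1.5 ± 0.25, adjusted p = 0.00918) and fell by 1.67 from 2 d to 7 d, and Cdkn2b rose at 7 d (1.25 ± 0.34, adjusted p = 0.0492). Rbl2, a pocket protein of DREAM, was higher at 7 d than at 2 d by 0.34. Leaving out any 1 library left the Cdkn1a calls in place (adjusted p up to 0.0463 at 2 d), while Cdkn2b reached 0.162. As lists, both lay inside the sham range in CVST-2d 5 (mean log2 difference from sham 0.028 for inhibitor and DREAM genes, -0.069 for G1 genes). The next 2 genes were picked after their values were seen. Cdkn1a read 15.6 to 20.9 CPM in sham and 50.2, 36.3, 34.3, 74.7 and 51.7 in CVST-2d 1 to 5. Mycn read 9.29 to 11 CPM in sham and 4.6, 6.14, 6.22, 3.25 and 3.24 in CVST-2d 1 to 5. In CVST-2d 5 these 2 genes lay outside the sham range on the side of the other 2 d libraries. Both were called at 2 d with CVST-2d 5 in the fit, so their choice favours such a place. It does not describe other genes in CVST-2d 5, where 22.2% of all genes lay above the highest sham. In that library 30 of the 50 mitotic genes lay inside the sham range, near the share of all genes (55.0%).

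**Figure D5:**
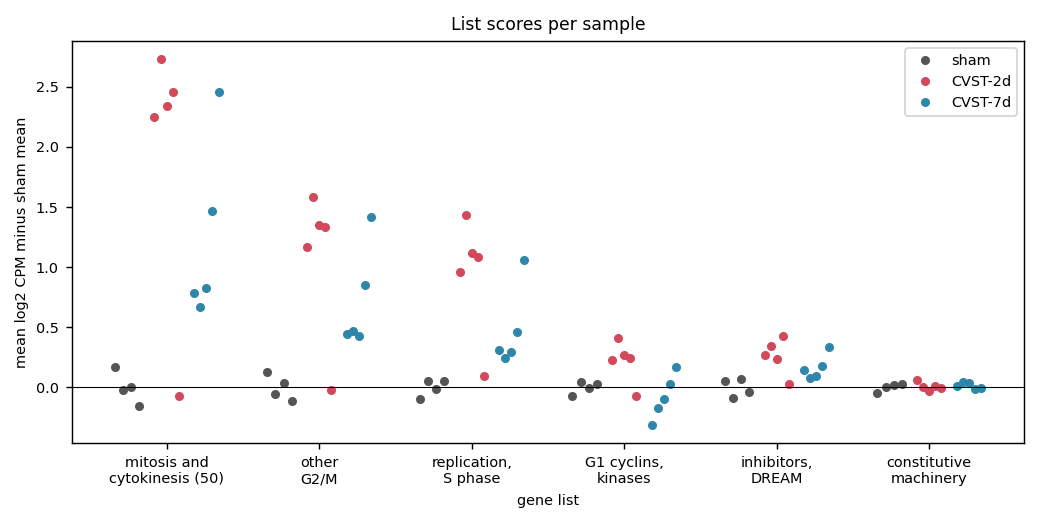
Mean log2 CPM minus the sham mean (y axis) of each gene list (x axis) in each sample (points, coloured by group, in sample order). CVST-2d 5 is the low red point at -0.07 for the 50 genes and CVST-7d 5 the high blue point at 2.46, while the constitutive machinery stays near 0 in all samples.

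The deposited FPKM values did not track the counts equally well for all genes. The SD over samples of log2(CPM/FPKM), which is near 0 when both measure the same thing, had a median of 0.0662 over all genes tested and 0.304 over the 50. It passed 0.5 in 11 of them, against 2.73% of all genes: Kif2c, Bub1, Top2a, Kif23, Mki67, Knl1, Cenpe, Kif20b, Dlgap5, Kif15 and Cenpf. Some of these had very low sham mean FPKM, such as Knl1 (0.0175), Bub1 (0.0475) and Kif2c (0.085). Others had more, such as Kif15 (1.165) and Kif23 (1.015). Rounding of low FPKM values may add to the SD, which was not tested. For Mki67 the 2 d mean was 12.5 times the sham mean in CPM and 5.67 times in FPKM. For Cenpe, Kif15 and Cenpf the 2 d and 7 d means stood in the opposite order in FPKM. Which values were used to scale FPKM to length is not given in the sources used here. A total of 18 of the 50 overlap another gene in RefSeq, such as Ccna2 with Exosc9 and Aurka with Cstf1, and whether the counting used strand is not given in the sources used here, so reads in those overlaps are uncertain.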

How the data were processed

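RNA from the cortex of both hemispheres of 14 mouse samples was sequenced as total RNA extracted with Trizol and NEBNext Ultra libraries, per the labels' protocols. The authors deposited whole-number read counts per gene and, in a second table, FPKM values for the same samples. Reads were handled with fastp, HISAT2 and DESeq2 1.16.1 on build mm39, per the submitters' processing notes. Neither the counting tool nor its strand setting or annotation is stated in those notes or the labels. Of the 55894 entries, 535 without an Ensembl gene (0.203% to 0.278% of counts) were left out.

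All 14 samples were fitted with edgeR 4.0.16 in R 4.3.3 (group means, TMM scaling, filterByExpr, 16918 genes), and 3 comparisons were tested 2-sided with the quasi-likelihood test and Benjamini-Hochberg adjustment at 0.05. SE is the fold change over the root of its F statistic. The biological coefficient of variation was 0.218. Log2 CPM used a prior count of 2. The fit was tested on simulated data. Alternatives were DESeq2 1.42.0 (size factors, Wald test), no filter on low counts, voom with sample weights and log2(FPKM + 0.1) in limma 3.58.1, only the groups compared, a replicate block, and each sample left out. With 4 or 5 samples per group, their number limits the precision.

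The 50 genes, the pathway and marker lists and the tests were chosen with earlier results of these data known. Values in every sample are given for the 2 genes of each role with the highest mean CPM, for Mki67, Top2a, Cdk1, Ccnb1 and Foxm1, and for any gene against the sign of the median at 2 d. Genes named from the other lists are called genes with the largest fold changes or were chosen after their values were seen. Motif matches were counted by exact letters.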

Additional observations from a re-analysis of the deposited data

Results flagged for a closer look

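In single genes, 1 sample of a group of 4 or 5 lay further from its nearest neighbour than Dixon's 95% limit allows, which chance gives in about 1 of 20 groups. CVST-7d 5 stood above the rest of its group in Cdk1 (7.13 CPM), Ccna2 (12.7 CPM), Ccnb1 (6.03 CPM), Foxm1 (6.40 CPM), Bub1b (17 CPM), Cdca3 (6.45 CPM) and Mki67 (27.6 CPM). CVST-2d 5 stood below the rest of its group in Cdk1 (0.0579 CPM), Tpx2 (2.72 CPM) and Kif11 (1.68 CPM), and in the mean log2 difference of the 50 genes from sham (-0.071). CVST-2d 1 was the low sample of its group in Anln (22.0 CPM). The genes vary together across samples, so these are not separate signals.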

How the results depend on the processing

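Counts of called genes depended on the method more than directions did: of the settings tried for the 16 genes shown by sample, 667 kept direction and side of the threshold, 64 lost a call, 46 gained one and 7 reversed, and the cause was not tested. Numbers of called genes below are given for 2 d, then 7 d, then 7 d against 2 d, and only where they moved by over 1.5 times. DESeq2's size factors moved none of them. DESeq2's Wald test called 24 and 2 of the 50 genes in the last 2 comparisons, 35, 10 and 3 further G2 and M phase genes, 7 and 8 replication genes in the last 2, 4 and 2 inhibitor genes in the first 2, 6 and 3 G1 genes in the first 2, and 3 constitutive genes in the last. Voom called 0 and 11 of the 50 in the last 2, 36, 1 and 5 further G2 and M phase genes, 31, 2 and 15 replication genes, 7 inhibitor and 6 G1 genes at 2 d, and 1 (2 d) and 3 (7 d against 2 d) constitutive genes. On log2 FPKM, limma called 10 and 2 of the 50 in the first 2, 6 further G2 and M phase and 12 replication genes at 2 d, and 0 (7 d) and 1 (7 d against 2 d) G1 genes. Without a filter, 2 of the 50 and 0 inhibitor genes were called at 7 d, and 0 constitutive genes between the times. With only the 2 groups compared, 2 inhibitor genes were called at 2 d; 5 of the 50, 2 replication, 0 inhibitor and 2 G1 genes at 7 d; and 0 replication, 1 inhibitor, 0 G1 and 0 constitutive genes between the times. Bub1b at 7 d changed sign to -0.022 with the replicate block and -0.039 with voom, and ranged from -0.20 to 0.31 with 1 sample left out (lowest without CVST-7d 5). Nuf2 between the times ranged from -0.29 (without CVST-2d 5) to 0.10 (without CVST-2d 2), above 0 also without CVST-2d 4, CVST-7d 1 or CVST-7d 2 (0.05, 0.06 and 0.04).

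Replicate numbers did not pair the samples: same-numbered samples of 13 pairs deviated with r from -0.44 to 0.28, 2 of 13 over 0.1, and 2 of 14 samples correlated best with their own number. With the replicate block, 1 of the 50, 2 further G2 and M phase and 5 replication genes were called at 2 d; 0 of the 50, 0 further G2 and M phase, 0 replication and 0 inhibitor genes at 7 d; and 0 replication, 1 inhibitor, 0 G1 and 0 constitutive genes between the times.

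Leaving out 1 sample gave 0 to 46, 0 to 4 and 0 to 9 calls among the 50, 1 to 38, 0 to 6 and 0 to 6 among further G2 and M phase genes, and 1 to 30, 0 to 4 and 0 to 15 among replication genes. Inhibitor genes ranged 1 to 7, 0 to 1 and 2 to 4, G1 genes 0 to 6, 0 to 1 and 1 to 4, and constitutive genes 0 to 1, 0 to 0 and 0 to 3. Counting error matters for the lowest genes, since the least abundant of the 50 had 7 counts over the 4 sham libraries.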
